A study of Homo sapiens with 2 samples.

Results

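AP-1 and immediate early genes were examined in SF-539 cells, a human glioblastoma (GBM) cell line, with and without depletion of FKBP9. The 10 genes were chosen by name, as the FOS family (FOS, FOSB, FOSL1 and FOSL2), the JUN family (JUN, JUNB and JUND) and the immediate early genes EGR1, IER2 and IER3. They are 10 of the 58735 genes in the deposited table, and each name matched 1 row. SF-539-shControl cells carried the lentiviral pGIPZ control construct and SF-539-shFKBP9 cells a lentiviral shRNA against FKBP9, an endoplasmic reticulum prolyl isomerase. Which of the study's hairpins was sequenced is not given in the sources used here. Both had been selected with puromycin, so the controls carry a vector and the resistance marker too, and the labels speak of stable clones without saying how many were pooled. Cells of both kinds were grown in DMEM with serum and labelled as passages 15 to 18. Each condition has 1 library, so the differences below have no replicate check and no test between the conditions was possible.

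AP-1 is a transcription factor made of 2 bZIP proteins, which pair through a leucine zipper and bind DNA with the basic region beside it. JUN proteins can pair with each other or with FOS proteins, whereas FOS proteins need a JUN partner. Immediate early genes are transcribed within minutes of a growth factor, serum or stress signal without new protein synthesis, largely through serum response factor at CArG boxes and through CREB and ATF factors at cyclic AMP response elements (CREs), and many of their mRNAs are short-lived. FOSL1 and FOSL2, also called FRA-1 and FRA-2, are the later and longer-lasting FOS proteins and are the ones known in mesenchymal tumor cells.

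Promoter sequences of the kind these signals are known to reach are shown first, since the choice by name did not use them. In RefSeq promoters of GRCh38.p14, from 250 bases before to 50 after the start of each gene, 8 of the 10 genes had an entry. FOSL1 and IER3 are the others. The CRE core TGACG, searched like all motifs here on both strands, was present in 8 of these 8 promoters and in 24.6% of 35116 promoters of the same length. The promoters compared were not matched for base composition. Each stretch below is read 5′ to 3′ on the strand of its gene, with the motif in capitals. Positions are counted back from the RefSeq start, and the letters describe the sequence without showing that a factor bound there. In JUND the core lies in a full CRE (TGACGTCA), held by 1.85% of all promoters, so that both motifs overlap there. In JUN the stretch shows the AP-1 site TGACATCA, found in 2.61%, which JUN dimers are known to use on their own gene.
FOS, chr14:75278751-75278780, plus strand, CRE core: gtggttgagcccgTGACGtttacactcatt
FOSB, chr19:45467923-45467952, plus strand, CRE core: agcaaggggcgggTGACGtaagcagggggg
FOSL2, chr2:28392779-28392808, plus strand, CRE core: tggagtctggggtTGACGtgagtgaatcca
JUN, chr1:58784096-58784125, minus strand, AP-1 site: aggccttggggTGACATCAtgggctatttt
JUND, chr19:18281804-18281833, minus strand, full CRE: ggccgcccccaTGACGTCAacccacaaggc

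EGR1 was the only one of the 8 with CArG boxes in this window, at positions -105 and -83, and 1.29% of all promoters held one. Sites farther upstream were not searched. The AP-1 consensus TGANTCA was found in FOSL2 alone, beginning at base 5 of the transcript, and in 7.71% of all promoters. A TATA box, TATAAA, was found in FOS, FOSB and JUNB, 30 to 33 bases before the start, and in 11.5%. The CArG boxes of EGR1 are in capitals below, between CRE cores on the opposite strand, which read CGTCA.
EGR1, chr5:138465339-138465428, plus strand: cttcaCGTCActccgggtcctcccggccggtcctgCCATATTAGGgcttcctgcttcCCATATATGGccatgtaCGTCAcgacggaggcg

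AU-rich pentamers (ATTTA in the DNA letters), through which short-lived mRNAs are known to be degraded, were counted in the 3′ UTR of the canonical transcript of each gene in GENCODE release 44. At least 1 was present in 9 of the 10 genes and in 70.9% of protein-coding genes. The median density was 1.62 per kilobase of 3′ UTR, against 1.64 over 18471 protein-coding genes with a 3′ UTR of at least 100 bases. IER3 had 6, or 8.14 per kilobase, a density reached by 2.09% of genes, and FOS had 5, or 6.20 per kilobase, reached by 5.27%. IER2 had 0. The densest stretches of both, with the pentamers in capitals, differ in that those of FOS overlap.
FOS, 3′ UTR, chr14:75282047-75282076, plus strand: aaacgttttattgtgtttttaATTTATTTA
IER3, 3′ UTR, chr6:30743655-30743684, minus strand: ttgctcctaattaatATTTAtatgtATTTA

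The values are FPKM, fragments per kilobase of gene length scaled to the size of the library. Fragments on each gene were recovered from them, 18116873 in shControl and 17158514 in shFKBP9. FKBP9 itself had 49.8 FPKM in shControl and 4.68 in shFKBP9. Mitochondrial genes held 2.13% and 2.20% of fragments. Of 8 glial markers, SLC1A3 and NES reached 1 FPKM, while GFAP, OLIG2 and SOX2 stayed below it and AQP4 had 0 fragments in both libraries. Mesenchymal markers summed to 2012 and 2123 FPKM, whereas EPCAM and CDH1, which define epithelial cells, were under 1 FPKM in cells labelled as epithelial glioma cells. KRT8, with 1.28 and 1.09 FPKM, was the only epithelial or keratinocyte marker to reach 1 FPKM. The fragments of KRT14 numbered 1 in shControl against 24 in shFKBP9, and those of KRT17 0 against 14. The 8 epithelial and keratinocyte markers summed to 1.89 and 2.67 FPKM and the 8 blood and plasma cell markers to 0.504 and 1.91, with PTPRC and CD3E at 0 fragments in both. The plasma cell genes IGHG1 and IGKC were at 0 fragments in shControl, against 33 and 8 in shFKBP9. Their part in the values below was not tested.

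The 10 genes covered a wide range of levels, and their order was nearly the same in both libraries. IER3, an early response gene known for its part in apoptosis control, was the highest at 169 FPKM in shControl and 168 in shFKBP9, which placed it at rank 200 and rank 201 of the 12741 genes that reached 1 FPKM in either library. JUN, FOSL1 and FOSL2 followed in shControl, then JUNB and JUND, then IER2 and EGR1 at 13.3 and 11.8 FPKM, and FOS and FOSB came last. The levels of IER2 and EGR1 in shControl had overlapping intervals, as had those of FOSL1 and JUN in shFKBP9, where FOSL1 stood above JUN. No other neighbours in either order overlapped. The intervals are exact 95% Poisson intervals of the fragments and, like all intervals here, cover counting error only.

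**Figure D1:**
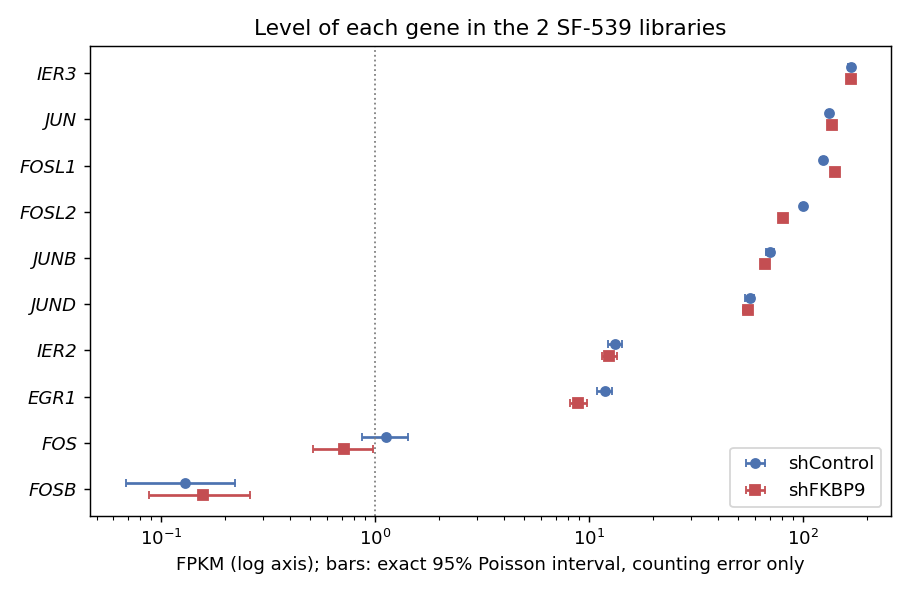
FPKM of the 10 genes on a log axis in the shControl library (circles) and the shFKBP9 library (squares), with exact 95% Poisson intervals of the fragments as bars and a dotted line at 1 FPKM. IER3, JUN, FOSL1, FOSL2, JUNB and JUND lie above 50 FPKM in both libraries, whereas FOS lies near 1 FPKM and FOSB below it.

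No gene of the 10 was past 2-fold in either direction, against 4.21% of the 12741 genes at 1 FPKM or more, and none was past 1.5-fold, against 8.68%. With 10 genes, a count of 0 is near these shares. Genes past 2-fold were fewer still among those counted deeply, 9 higher and 6 lower of 10288 genes with at least 200 fragments that reached 1 FPKM. Folds and log2 ratios set shFKBP9 over shControl after adding 0.1 FPKM to each value, which draws low genes toward 0. FOS lay at the edge of the lower limit, since without the added 0.1 it was 1.56-fold lower in shFKBP9. In RNA from whole cultures, fewer cells with an mRNA and less of it per cell cannot be told apart. The counting interval of the ratio lay above 0 for 2 genes (FOSL1 and JUN), below 0 for 3 (FOS, FOSL2 and EGR1) and included 0 for 5. Over all genes at 1 FPKM or more it lay above 0 for 17.2% and below 0 for 20.8%. Among the 8 genes with at least 200 fragments in both libraries together it was off 0 for 4, against 43.5% of 10567 genes of that depth. Over the 10 genes the log2 ratios had a median of -0.05, and over the 9 that reached 1 FPKM, all but FOSB, it was -0.08, where all genes at 1 FPKM or more had -0.02.

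**Figure D2:**
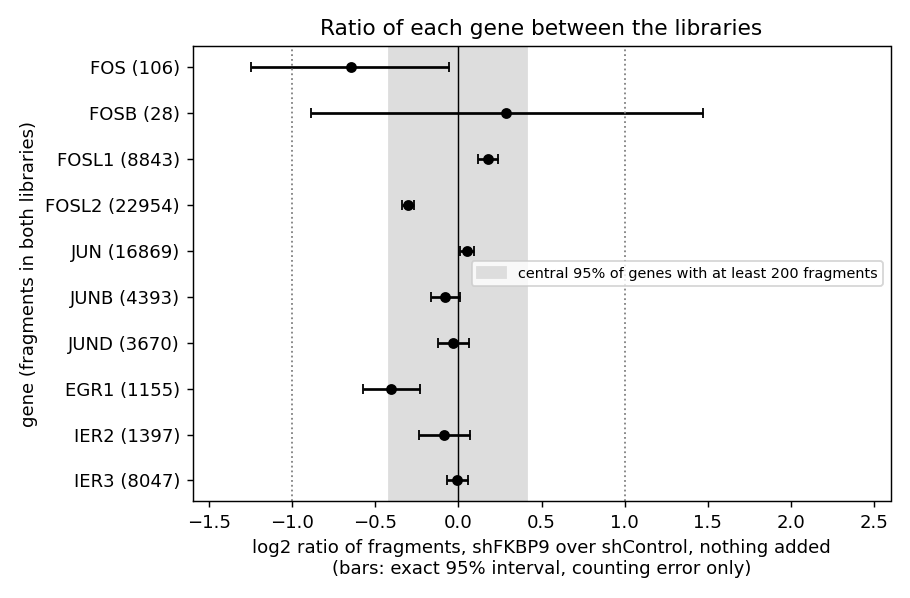
Log2 ratio of fragments in shFKBP9 over shControl for each of the 10 genes, with nothing added and scaled by library size, and with exact 95% intervals of counting error. The grey band, from -0.42 to 0.41, holds the central 95% of 10567 genes with at least 200 fragments. FOSL2 and EGR1 lie to the left inside it, FOS lies beyond it with a wide interval, and FOSL1 lies to the right.

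In the FOS family the 2 abundant members stood on opposite sides. FOSL1 (ENSG00000175592, chromosome 11 of hg38, 65892049 to 65900573, 4 exons) had 4266 fragments or 125 FPKM in shControl, and 4577 or 141 FPKM in shFKBP9. It was 13.2% higher, with a log2 ratio of 0.18 (95% interval 0.12 to 0.24). FOSL2 (ENSG00000075426, chromosome 2, 28392448 to 28417312, 4 exons) had 100.1 FPKM from 12977 fragments and 81.2 FPKM from 9977. Its FPKM in shFKBP9 was 81.1% of that in shControl, a log2 ratio of -0.30 (-0.34 to -0.26). With 22954 fragments it was the most deeply counted of the 10 genes. A log2 ratio at least as far from 0 was found for 13.7% of genes with at least 200 fragments in the case of FOSL2 and for 36.0% in that of FOSL1. Among genes with 0.5 to 2 times the fragments of each, the shares were 8.87% of 406 genes for FOSL2 and 24.5% of 1391 for FOSL1.

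The balance between these genes can be read within each library, where scaling has no part. FPKM of FOSL1 was 1.25 times that of FOSL2 in shControl and 1.74 times in shFKBP9, and the ratio was larger in shFKBP9 by a factor of 1.40 (95% interval 1.33 to 1.47). FOSL1 made up 55.2% of the summed FPKM of the FOS family in shControl and 63.3% in shFKBP9, and FOSL2 made up 44.3% and 36.4%. The sum itself was 226 and 223 FPKM.

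FOS and FOSB, the classical members that respond first to a stimulus, held under 1% of the family's FPKM. FOS (ENSG00000170345, chromosome 14, 75278774 to 75282230, 4 exons) had 66 fragments or 1.13 FPKM in shControl, and 40 or 0.72 FPKM in shFKBP9. Its log2 ratio was -0.58, and the interval, made without the added 0.1, ran from -1.25 to -0.06. FOS thus passed the minimum of 1 FPKM only through shControl, the library in which it was higher. Of the 2498 genes with 0.5 to 2 times its fragments, a choice made after its value was seen, 10.9% had a log2 ratio at least as far from 0, and 5.92% were at least as much lower in shFKBP9. FOSB (ENSG00000125740, chromosome 19, 45467995 to 45475179, 4 exons) had 0.13 FPKM from 13 fragments and 0.16 FPKM from 15, with an interval from -0.89 to 1.47, and a difference could not be seen with so few fragments. It overlaps ERCC1, a DNA repair gene on the other strand with 1082 and 997 fragments, and reads of overlapping genes cannot be told apart where the counting is not stated to use strand. FOSL1 was 111 times as abundant as FOS in shControl and 196 times in shFKBP9, per length. Both ratios rest on the 66 and 40 fragments of FOS.

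The JUN family, which supplies the partners of the FOS proteins, differed little between the libraries. JUN (ENSG00000177606, chromosome 1, 58780788 to 58784327, 1 exon) had 8509 fragments or 133 FPKM in shControl, and 8360 or 138 FPKM in shFKBP9. The log2 ratio was 0.05 with an interval from 0.01 to 0.09, which included 0 once the values were rescaled to TPM. JUNB, which can dampen the activity of JUN, had 70.2 FPKM from 2315 fragments and 66.5 from 2078, with a log2 ratio of -0.08 (-0.17 to 0.01), an interval that came to lie below 0 after rescaling to TPM. JUND, the member known for steady expression in resting cells, had 56.4 FPKM from 1903 fragments and 55.2 from 1767, with a log2 ratio of -0.03 (-0.12 to 0.06). The summed FPKM of the family was 259 in both libraries, and JUN made up 51.2% of it in shControl and 53.0% in shFKBP9. JUNB (chromosome 19, 12791496 to 12793315) and JUND (chromosome 19, 18279760 to 18281622) have 1 exon each. JUNB overlaps HOOK2 on the other strand, which had 634 and 534 fragments. Summed JUN family FPKM exceeded summed FOS family FPKM 1.15 times in shControl and 1.16 times in shFKBP9.

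**Figure D3:**
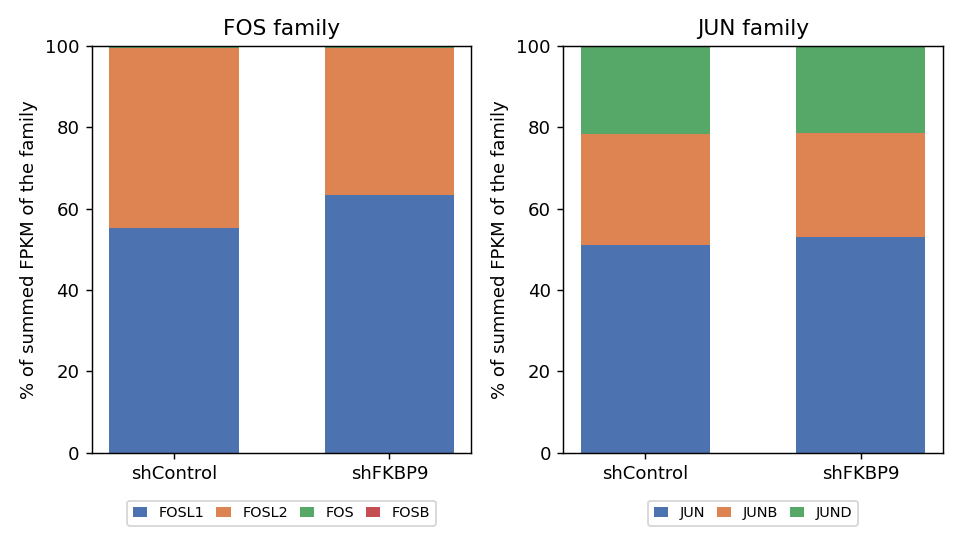
Share of the summed FPKM of the FOS family (left) and of the JUN family (right) held by each gene in the shControl and shFKBP9 libraries. FOSL1 takes 55.2% and 63.3% of the FOS family and FOSL2 44.3% and 36.4%, FOS and FOSB are too few to be seen, and the shares of JUN, JUNB and JUND are within 2 percentage points of each other between the libraries.

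Set among all factors of their class, 5 of the 7 AP-1 genes were near the top, while FOS and FOSB, with the levels given above, were not. The file annotates 48 genes as bZIP factors, of which 36 reached 1 FPKM, and JUN, FOSL1 and FOSL2 were the 3 highest in shControl. In shFKBP9 FOSL1 had rank 1, JUN rank 2 and FOSL2 rank 4, and rank 3 was held by ATF4, the stress factor of the PERK branch, with 92.7 FPKM in shControl and 129.7 in shFKBP9. JUNB had rank 6 and JUND rank 8 in both libraries. This ranking was made after the values had been seen.

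Of the 3 immediate early genes outside AP-1, EGR1 was the one whose interval left out 0. EGR1 (ENSG00000120738, chromosome 5, 138465490 to 138469315, 2 exons), a zinc finger factor induced by growth factors, had 673 fragments or 11.8 FPKM in shControl, and 482 or 8.95 FPKM in shFKBP9. It was at 75.5% of its shControl level, with a log2 ratio of -0.40 (-0.58 to -0.23). Of genes with at least 200 fragments, 5.78% had a log2 ratio at least as far from 0, the smallest such share among the 8 genes of that depth, and of 4713 genes with 0.5 to 2 times its fragments 4.86% had one. IER2 and IER3 did not share this difference in size. IER2 (ENSG00000160888, chromosome 19, 13150415 to 13154908, 2 exons), a nuclear early response protein, had 13.3 FPKM from 738 fragments and 12.5 from 659, with a log2 ratio of -0.09 (-0.24 to 0.07). IER3 (ENSG00000137331, chromosome 6, 30743199 to 30744554, 2 exons) had 4141 and 3906 fragments, with a log2 ratio of -0.01 (-0.07 to 0.06) that changed sign when the libraries were scaled by the median ratio. The ratio of IER3 to EGR1 within a library was 14.2 in shControl and 18.8 in shFKBP9, larger by a factor of 1.32 (1.16 to 1.5), and that of IER2 to EGR1 was larger by 1.25 (1.06 to 1.46).

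The genes beside these loci gave a local comparison. REEP2, the nearest protein-coding gene before EGR1 at 18.5 kilobases, had 199 fragments in shControl and 139 in shFKBP9, with a log2 ratio of -0.43 (-0.76 to -0.12), close to that of EGR1, while ETF1 on the other side, a translation termination factor, was at -0.13 (-0.21 to -0.06). JDP2, a bZIP repressor of AP-1 that follows FOS on chromosome 14 at 145 kilobases, was at 0.26 (0.08 to 0.46), opposite in sign to FOS. CCDC85B, on the other strand and 414 bases from the 3′ end of FOSL1, had 292 and 302 FPKM and a log2 ratio of 0.05 (0.00 to 0.09). The 15 different nearest neighbours at 1 FPKM or more ranged from -0.43 to 0.26, around a median of -0.03, and 0 lay past 2-fold.

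Further genes of the pathway, from lists written with earlier results of these data known, are given by their counting intervals over the genes at 1 FPKM or more in either library. The shares over all such genes, 17.2% above 0 and 20.8% below, and the 43.5% off 0 among genes with at least 200 fragments, serve for comparison. Of 9 bZIP partners and relatives that reached 1 FPKM, out of 13 listed, the interval lay above 0 for 4 and below 0 for 1, a share off 0 near that of the deeply counted genes. The median log2 ratio was 0.18 over these 9 and 0.01 over all 13. The largest were ATF3, itself a stress-induced early gene, with 2.87 FPKM in shControl and 3.75 in shFKBP9 (log2 ratio 0.37, 0.12 to 0.65), ATF2, a partner of JUN at CREs (0.30, 0.14 to 0.46), BATF3 (0.28, -0.12 to 0.70) and JDP2.

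The other early response genes were spread to both sides of 0, with 13 log2 ratios above it and 14 below. Of 27 that reached 1 FPKM, out of 34 listed, the interval lay above 0 for 9 and below 0 for 2, again near that share, and the median log2 ratio was -0.00, which became 0.01 when scaled by the median ratio. The 4 largest were all higher in shFKBP9. CYR61, a secreted matrix protein gene, had 9.04 and 15.1 FPKM (log2 ratio 0.74, 0.56 to 0.93). HBEGF, an EGF receptor ligand, had 4.01 and 6.39 FPKM (0.66, 0.42 to 0.93). CTGF, related to CYR61, had 6.66 and 10.3 FPKM (0.62, 0.40 to 0.85), and PTGS2, the inducible prostaglandin synthase, had 1.95 and 2.91 FPKM (0.55, 0.30 to 0.86). RHOB was the most abundant at 83.7 and 77.8 FPKM.

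Upstream of these genes, SRF, which binds the CArG boxes, had 22.6 and 22.8 FPKM (log2 ratio 0.01, -0.09 to 0.11) and was the most abundant of its list. Of the 10 genes of serum response factor, its partners and CREB that reached 1 FPKM, out of 11, the interval lay above 0 for 4 and below 0 for 2, which became 1 after scaling by the median ratio. ELK3, a ternary complex factor that can repress SRF targets, had 10.3 and 15.1 FPKM (0.55, 0.43 to 0.68), MEF2A was at 0.36 (0.22 to 0.52), CREM at 0.27 (0.02 to 0.54) and MRTFA, an actin-regulated SRF partner, at -0.18 (-0.30 to -0.07). Of 12 MAP kinase and kinase kinase genes, out of 16, the interval lay above 0 for 1 and below 0 for 3, which became 4 after rescaling to TPM and 2 after scaling by the median ratio. MAPK3, which encodes ERK1, had 27.1 and 21.9 FPKM (-0.31, -0.41 to -0.21). MAP2K7 and MAPK9, of the JNK branch, were at -0.25 (-0.38 to -0.12) and -0.14 (-0.27 to -0.02). MAP2K3, which acts on p38, was at 0.21 (0.05 to 0.37). MAP2K2 was the most abundant at 46.1 and 44.3 FPKM. These are mRNA levels and do not measure kinase activity.

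Of 15 genes known as AP-1 targets that reached 1 FPKM, out of 18, the interval lay above 0 for 12 and below 0 for 1, beside 17.2% and 20.8% of all genes. The median log2 ratio was 0.20 over these 15 and 0.32 over all 18. The genes added in the larger set had few fragments, 0 and 2 for MMP10, 8 and 17 for MMP1 and 17 and 14 for MMP9. The list was written with IL6 already known to be higher in shFKBP9, so its count is a description. IL6 was the only one past 2-fold, with 15 and 67 fragments, where 2.02% of all genes at 1 FPKM or more were past 2-fold in that direction. Those were 258 genes, of which only 22 were protein-coding, as IL6 is. At 0.40 FPKM in shControl and 1.89 in shFKBP9, IL6 passed the minimum of 1 FPKM only through the library in which it was higher. IL11, a cytokine of the IL6 family, was at 0.55 (0.38 to 0.72), the neutrophil chemokine CXCL8 at 0.47 (0.38 to 0.57) and PLAU, the urokinase gene, at 0.47 (0.39 to 0.54). MMP3, named after its value was seen, was the one with an interval below 0, at 29.3 and 21.4 FPKM (-0.45, -0.59 to -0.31).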

How the data were processed

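The authors removed reads with adapters, undetermined bases or low quality, aligned paired-end reads to hg38 with HISAT2 2.0.5 and counted them per gene with featureCounts 1.5.0-p3. The annotation release and strand setting are not given in the sources used here. The authors deposited FPKM per gene for both libraries. The file held 0 other columns of values per library.

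Fragments were recovered as FPKM times gene length divided by the step of the library, and 100% of values above 0 were whole within 0.01. The library sizes in the FPKM were 18106502 and 17168342. Intervals of ratios are exact Clopper-Pearson intervals, or exact conditional intervals for ratios of 2 genes within a library. With 1 library per condition the study's edgeR test was not repeated and no p-value is given.

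The genes and lists were chosen with earlier results of these data known. Named from each list were genes past 2-fold, the 4 largest log2 ratios among genes with at least 200 fragments, and the most abundant gene. Overlapping and nearest genes were also eligible. Some genes that this rule names are not reported here, and counts and medians of the lists include them. Likeness of patterns was not computed over 2 libraries.

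Simulated libraries of this depth, with counting error as their only spread, checked the calculation. All of 58735 fragment counts were recovered, and intervals covered 0 for 95.2% of 10082 unchanged genes with at least 200 fragments. The changed genes also had at least 200 fragments and were set well past 2-fold, so the 200 of 200 that passed it follow from the setting. Smaller changes, low genes and differences between cultures were not simulated. The work used scipy 1.17.1, numpy 2.4.6 and pandas 2.3.3 in Python 3.11.15. Shares among genes of like depth, ratios of 2 genes within a library and ranks among bZIP factors were chosen after seeing the data.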

Additional observations from a re-analysis of the deposited data

How the results depend on the processing

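The number of the 10 genes past 2-fold remained 0 in both directions with 1 or 0.01 added to FPKM, after rescaling to TPM or by the median ratio, with no minimum, with a minimum in both libraries, among protein-coding genes alone, and with nothing added. At 1.5-fold it was 0 with 0.1 FPKM added, but FOS was 1.56-fold lower with nothing added. The number with an interval above 0 was 1 in place of 2 after rescaling to TPM and 1 with 99% intervals, and the number with one below 0 was 4 and 2 in these settings in place of 3. Over the whole table, 258 higher and 279 lower genes became 138 and 153 with 1 FPKM added, 2022 and 1993 with no minimum, 40 and 41 with 1 FPKM in both libraries, 22 and 20 among protein-coding genes, and 541 and 565 at 1.5-fold. The log2 ratio of FKBP9 was -3.16 with 1 FPKM added, against -3.38. Rescaling to TPM shifted ratios by -0.02 on the log2 scale before anything was added, and scaling by the median ratio, 0.989, by 0.02 the other way. Low genes moved differently because the 0.1 added weighs less in TPM: FOS was at -0.64 and FOSB at 0.22 in TPM, against -0.58 and 0.17.

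No paired analysis was possible because each condition has 1 library. The 66 and 40 fragments of FOS and the 13 and 15 of FOSB limit what can be said of them. Culture, transduction and loss of FKBP9 cannot be told apart with 1 library each.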
